A study of Mus musculus with 37 samples.

Results

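The genes described here are 9 transcripts that define the heat-producing program of brown fat: *Ucp1*, *Cidea*, *Dio2*, *Elovl3*, *Ppargc1a*, *Prdm16*, *Cox7a1*, *Cox8b* and *Cpt1b*. They were taken from the array table by gene symbol, each through its brightest probe set, the one with the highest mean over the BXD strains. A probe set was found for 8 of the 9 among 41155 transcripts. No probe set carries the symbol *Cpt1b* or an older name of it, so *Cpt1b*, the muscle form of carnitine palmitoyltransferase, was not analysed here. *Dio2* and *Prdm16* each had a second, dim probe set with means of 7.35 and 6.998, which correlated with the one used at r = 0.33 and r = 0.22 over 35 strains.

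The arrays hold brown adipose tissue (BAT) of chow-fed male mice from 35 BXD strains and from both parental strains, C57BL/6J and DBA/2J. BXD strains are inbred lines derived from crosses of these parents, so each carries a fixed mixture of their alleles. All mice ate a Harlan chow, were killed at 29 weeks of age after an overnight fast and were perfused through the heart, and the labels name no transgene and no other treatment. RNA of about 5 mice was combined per strain and hybridised to 1 Affymetrix MoGene 2.0 array, so there is no error within a strain, and the spread over strains holds strain differences and array error together. P-values below therefore measure relations over strains. Values are in the units of the deposited table, in which each array was rescaled to a mean of 8 and an SD of 2; the log base before rescaling is not given in the sources used here, so a difference of 1 unit is not a stated fold.

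Brown adipocytes turn fuel into heat in their mitochondria. Noradrenaline from sympathetic nerves acts on beta-adrenergic receptors, cyclic AMP rises, and protein kinase A then frees fatty acids from lipid droplets and raises transcription of the heat-producing genes. *Ucp1* encodes the uncoupling protein that lets protons return to the matrix without making ATP. *Dio2* activates thyroid hormone, *Ppargc1a* is a coactivator of mitochondrial genes, *Prdm16* is a regulator of brown fat identity, *Cidea* coats lipid droplets, *Elovl3* elongates fatty acids, and *Cox7a1* and *Cox8b* are the forms of cytochrome c oxidase subunits used in brown fat, heart and skeletal muscle.

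The labelled tissue was checked against marker genes, each list summarised by the mean of its genes on an array. Background was set at 7.94, the 95th percentile of 1128 probe sets of olfactory receptors. All 6 adipocyte genes, 5 of 6 brown adipocyte genes and all 20 skeletal muscle genes lay above it, and the brown adipocyte gene below it was *Lhx8*, with a mean of 7.84. Over the BXD strains the adipocyte score ran from 13.46 to 13.76, the brown adipocyte score from 10.65 to 11.51 and the skeletal muscle score from 9.74 to 13.33. Skeletal muscle transcripts were thus on every array. Of the muscle genes *Casq1*, calsequestrin, had the widest range, 4.54 units, and *Myl1*, a myosin light chain, the narrowest, 1.34. Of the adipocyte genes these were *Cidec* with 0.655 and *Fabp4* with 0.324, and of the brown adipocyte genes *Slc27a2* with 3.47 and *Ebf2* with 0.544. BXD70 and DBA/2J stood apart in liver genes, with liver scores of 12.65 and 11.05 against a BXD median of 7.42. BXD97 had the highest muscle score and the lowest adipocyte score, and BXD61 the highest macrophage score, 11.20, and the lowest brown adipocyte score. For some of the results, values without 1 or more of these strains are also given. Correlations between the BXD arrays over all transcripts ran from 0.968 to 0.987.

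RefSeq promoters on the mouse build GRCm38.p6 were at hand for 6 of the 9 genes, and those of the 5 genes that formed covarying pairs are shown because these pairs carry the main result. Each is the 250 bases before the start of the gene, 5′ to 3′ on the gene's own strand. *Ucp1* is at chr8:83290098-83290347 (forward strand), *Dio2* at chr12:90739039-90739288 (reverse strand), *Ppargc1a* at chr5:51567726-51567975 (reverse strand), *Cox7a1* at chr7:30183921-30184170 (forward strand) and *Cox8b* at chr7:140900447-140900696 (reverse strand). Capitals mark every match, on either strand, to the motifs TGACGTCA (the full cyclic AMP response element), AGGTCA (a nuclear receptor half-site), TNAAGGTCA (the extended half-site of oestrogen-related receptors), CAGCTG (an E-box) and the MEF2 motif.
Ucp1: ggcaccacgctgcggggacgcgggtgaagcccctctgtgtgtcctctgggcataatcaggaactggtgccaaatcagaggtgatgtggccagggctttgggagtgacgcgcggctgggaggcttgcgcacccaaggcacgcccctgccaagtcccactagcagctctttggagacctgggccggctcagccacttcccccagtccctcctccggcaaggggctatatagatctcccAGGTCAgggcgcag
Dio2: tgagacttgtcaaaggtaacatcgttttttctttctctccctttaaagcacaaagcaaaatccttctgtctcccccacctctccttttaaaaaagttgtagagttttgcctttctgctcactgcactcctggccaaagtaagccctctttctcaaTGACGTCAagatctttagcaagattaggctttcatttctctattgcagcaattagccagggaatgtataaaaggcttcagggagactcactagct
Ppargc1a: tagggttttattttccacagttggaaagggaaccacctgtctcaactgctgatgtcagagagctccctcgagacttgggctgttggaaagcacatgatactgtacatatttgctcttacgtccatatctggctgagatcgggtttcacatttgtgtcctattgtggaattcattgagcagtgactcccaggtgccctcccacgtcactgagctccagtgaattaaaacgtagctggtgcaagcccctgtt
Cox7a1: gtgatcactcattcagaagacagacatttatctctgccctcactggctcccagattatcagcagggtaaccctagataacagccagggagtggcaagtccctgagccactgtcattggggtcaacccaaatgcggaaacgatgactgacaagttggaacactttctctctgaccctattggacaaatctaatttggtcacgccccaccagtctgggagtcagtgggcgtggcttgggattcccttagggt
Cox8b: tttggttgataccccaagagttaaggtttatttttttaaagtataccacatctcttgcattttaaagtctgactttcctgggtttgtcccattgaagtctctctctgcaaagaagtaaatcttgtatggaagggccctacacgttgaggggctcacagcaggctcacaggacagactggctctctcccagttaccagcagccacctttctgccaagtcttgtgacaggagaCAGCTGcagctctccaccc

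*Dio2* held the full cyclic AMP element from base -95 to base -88, counted from the last base before the start as -1; 1.55% of 32851 promoter windows of this length hold it. *Ucp1* held the AGGTCA half-site from -14 to -9, as do 14% of all windows, and *Cox8b* held the E-box from -19 to -14, as do 13%. No motif searched was found in the windows of *Ppargc1a*, *Cox7a1* or, not shown, *Prdm16*. The extended half-site and the MEF2 motif, present in 1.14% and 2.92% of all windows, were in none of the 6. AGGTCA is contained in the extended half-site. A match describes these letters and is not evidence that a factor binds there.

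*Ucp1* lay close to the top of the arrays in every strain. It ran from 14.82 in BXD84 through a median of 15.41 to 15.69 in BXD87, with a mean of 15.37 ± 0.23 (SD, n = 35 strains). The highest value of any probe set on an array was between 16.18 and 16.47, and whether saturation narrows the spread of so bright a probe set was not tested.

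Among the regulators of the program, *Dio2* and *Ppargc1a* varied by more than 1 unit over the strains. *Dio2* ran from 8.17 in BXD103 through 9.92 to 11.42 in BXD70, with a mean of 9.89 ± 0.84 (SD, n = 35). *Ppargc1a* ran from 11.51 in BXD79 through 12.07 to 13.26 in BXD70, with a mean of 12.09 ± 0.38 (SD, n = 35). BXD70 thus had the highest value of both, and for *Ppargc1a* it stood well clear of BXD55, the next strain, at 12.70. *Prdm16* had a narrower range, from 9.04 in BXD89 through 9.45 to 9.70 in BXD90, with a mean of 9.44 ± 0.17 (SD, n = 35).

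Of the genes that handle lipid, *Elovl3* and *Cidea* were at opposite ends of the spread. *Elovl3* ran from 8.54 in BXD69 through 11.87 to 14.44 in BXD87, with a mean of 11.81 ± 1.19 (SD, n = 35). This range of 5.89 units was the widest among the members, and the SD exceeded that of 99.8% of the 19436 transcripts above background. *Cidea* ran from 14.39 in BXD61 through 14.75 to 14.91 in BXD45, with a mean of 14.73 ± 0.11 (SD, n = 35).

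Both respiratory chain subunits had narrow ranges. *Cox7a1* ran from 14.27 in BXD96 through 14.55 to 14.78 in BXD75, with a mean of 14.54 ± 0.12 (SD, n = 35). *Cox8b* ran from 14.94 in BXD80 through 15.18 to 15.37 in BXD48, with a mean of 15.18 ± 0.09 (SD, n = 35). Only 4.37% of transcripts above background had a smaller SD than *Cidea*, 6.66% than *Cox7a1* and 1.54% than *Cox8b*; these are bright probe sets, and the share of this evenness that comes from brightness was not tested. A range of at least 1 unit was reached by *Dio2*, *Elovl3* and *Ppargc1a*, 3 of 8 members, which is close to the 40.7% of all transcripts.

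**Figure D1:**
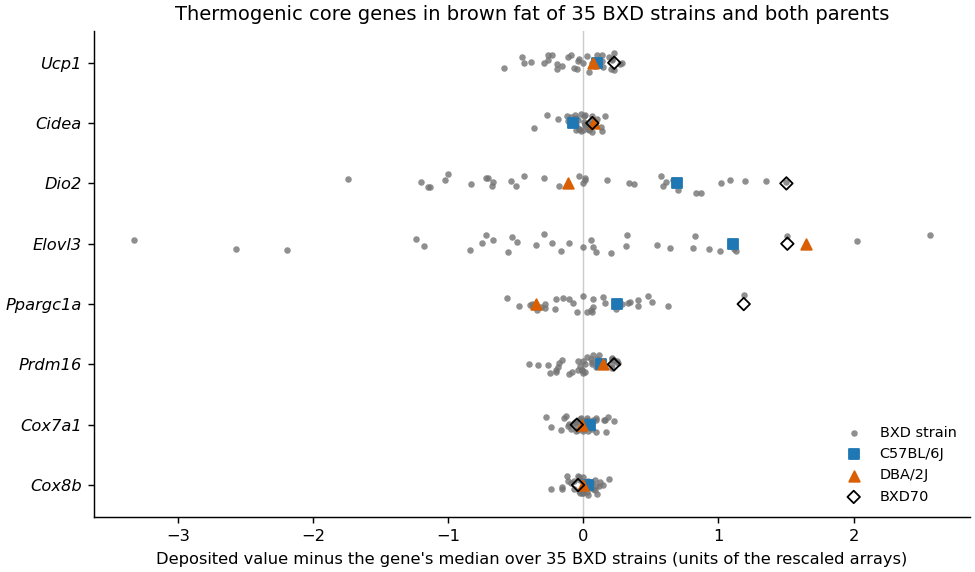
Values of the 8 members in each strain, as the difference from the gene's own median over the 35 BXD strains (horizontal axis, units of the rescaled arrays); grey points are BXD strains, the square is C57BL/6J, the triangle DBA/2J and the open diamond BXD70. *Elovl3*, *Dio2* and *Ppargc1a* spread over at least 1 unit, and both parents lie within the BXD range of every member.

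A few strains were high or low in many members at once. BXD97 was among the 5 lowest strains in 7 of the 8 members, all but *Dio2*, and BXD84 in 6, all but *Cidea* and *Prdm16*. BXD70 was among the 5 highest in *Ucp1*, *Dio2*, *Elovl3*, *Ppargc1a* and *Prdm16*, but ranked number 23 of 35 in *Cox7a1* and number 27 in *Cox8b*. BXD87 had the highest *Ucp1* and *Elovl3* and the second highest *Dio2* and *Prdm16*. With 1 array per strain, neighbours in the order of strains cannot be told apart by an error of their own.

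The parents differed little in most members. *Ucp1* was 15.50 in C57BL/6J and 15.48 in DBA/2J, and *Prdm16*, *Cox7a1* and *Cox8b* also differed by less than 0.07 units. *Dio2* was 10.61 in C57BL/6J and 9.80 in DBA/2J, a difference of -0.81 units that exceeded the absolute difference of 95.6% of all transcripts. *Ppargc1a* was 12.33 in C57BL/6J and 11.72 in DBA/2J, and *Elovl3* was 12.97 and 13.52. *Cidea* was 14.67 and 14.83. Each parent was 1 array, so these differences have no test. Both parents lay inside the BXD range of all 8 members, and BXD strains extended past both parents on both sides.

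All members had a negative correlation with the muscle transcripts, but no relation passed the threshold. Pearson's r with the muscle score was negative for all 8 members, from -0.39 for *Ppargc1a* to -0.074 for *Elovl3*, with a median of -0.29, against a median of -0.015 over all transcripts. It was also negative for 53.0% of all transcripts and for 55.8% of those above background. The members covaried with one another, so the 8 signs are not independent observations. In limma with the muscle score as a covariate, 0 of 8 members fell with it at an adjusted p of 0.05, beside 0.309% of all transcripts, and none rose, beside 1.56%; at an unadjusted p below 0.05 *Ucp1* and *Ppargc1a* fell, beside 5.79% of all transcripts. The muscle score went with 0.552% (*Elovl3*) to 15.2% (*Ppargc1a*) of the variance of a member. In a tissue sample, fewer brown adipocytes and less RNA per brown adipocyte cannot be told apart.

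The strains at the ends of the muscle score are given as examples, and the slopes give the size of the relation. Here and in the next paragraph, the gap between these strains was wider than the slope alone gives. BXD97 was also among the 5 lowest strains in 7 of the 8 members and had the lowest adipocyte score. BXD65, with the lowest muscle score, had a *Ucp1* value of 15.61, and BXD97, with the highest, 15.02. The slope for *Ucp1* was -0.099 ± 0.044 (SE) units per unit of the muscle score, with r = -0.37 (permutation p = 0.030), rho = -0.32 (p = 0.059) and a limma adjusted p of 0.37. *Ppargc1a* was 12.40 in BXD65 and 11.59 in BXD97. Its slope was -0.174 ± 0.069 (SE), with r = -0.39 (permutation p = 0.021), rho = -0.54 (p = 0.0011) and an adjusted p of 0.28. Without BXD65 and BXD95, the strains farthest from the median of the muscle score, r was -0.32 for *Ucp1* and -0.40 for *Ppargc1a*. Without BXD97, r was -0.32 and -0.35.

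The respiratory chain subunits, which muscle fibres also use, had negative values too. *Cox7a1* was 14.73 in BXD65 and 14.39 in BXD97, with r = -0.35 (permutation p = 0.037), rho = -0.42 (p = 0.012) and an adjusted p of 0.48. *Cox8b* was 15.33 in BXD65 and 15.02 in BXD97, with r = -0.31 (permutation p = 0.071), rho = -0.33 (p = 0.052) and an adjusted p of 0.62. Without BXD65 and BXD95, r was -0.33 for *Cox7a1* and -0.15 for *Cox8b*. For *Dio2*, *Prdm16* and *Cidea*, r lay between -0.24 and -0.27, with permutation p from 0.12 to 0.17. With each strain left out, r for *Cidea* ran from -0.32 (without BXD65) to -0.17 (without BXD97).

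**Figure D2:**
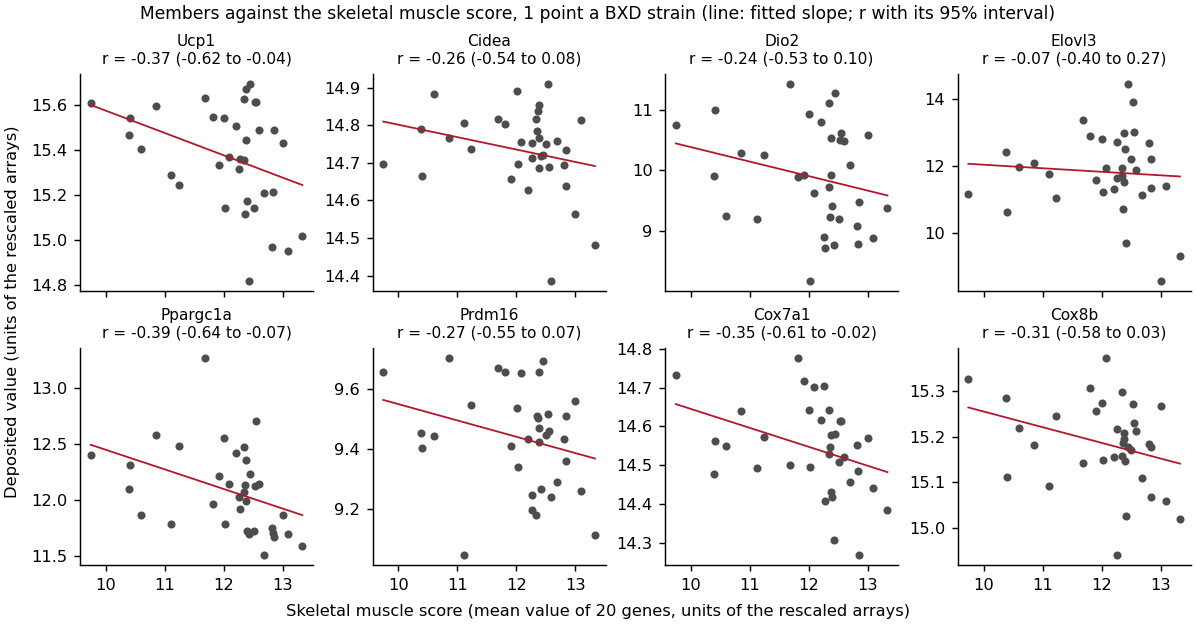
Each member's value (vertical axes, units of the rescaled arrays) against the skeletal muscle score, the mean value of 20 muscle genes (horizontal axis), with 1 point for each of 35 BXD strains, the fitted slope as a line and r with its 95% interval. All 8 slopes are negative, and the r values run from -0.39 to -0.07.

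Other genes that brown fat shares with striated muscle followed the muscle score closely. *Ckmt2*, the mitochondrial creatine kinase of striated muscle, ran from 7.67 in BXD65 through 10.76 to 12.15 in BXD97 and rose with the score at r = 0.99, rho = 0.96. *Cox6a2*, another cytochrome c oxidase subunit of heart and muscle, ran from 9.77 through 12.15 to 12.97, with r = 0.97, rho = 0.93. For *Mb*, myoglobin, r was 0.98 and rho 0.95, and for *Sln*, sarcolipin, 0.75 and 0.82. These 4 genes passed the threshold in limma (adjusted p from 2.5e-27 to 8.2e-06), with permutation p = 1e-05, the smallest that 100000 permutations can give, and r of 0.71 to 0.98 without BXD65 and BXD95. *Fabp3*, a fatty acid binding protein, had r = -0.033 (permutation p = 0.85), rho = -0.13 (p = 0.46) and an adjusted p of 0.98. Thus 4 of 5 genes on this list rose with the muscle score, beside 1.56% of all transcripts, and none of the 8 members did. The list was written with earlier results of these data known. *Sln* was above background in 22 strains and *Ckmt2* in 34, with BXD65 under the limit. *Cox6a2*, *Mb*, *Fabp3* and all 8 members were above it in all 35. The share of these transcripts that came from brown adipocytes was not tested.

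The members were in general positively related to one another. Of 28 pairs, 27 had a positive r over the 35 strains, with a median of 0.40, and 18 had an unadjusted permutation p below 0.05. For comparison, the median r of all transcripts with a member lay between 0.0051 (*Ppargc1a*) and 0.038 (*Cox8b*). At an unadjusted p below 0.05 in limma, between 4.7% (*Ppargc1a*) and 10.8% (*Cox8b*) of all transcripts rose with a member. A pair was called only where the adjusted p of limma was below 0.05 in both of its fits, with each gene in turn as covariate, and 4 pairs were called: *Ucp1* with *Dio2*, *Ucp1* with *Ppargc1a*, *Dio2* with *Ppargc1a*, and *Cox7a1* with *Cox8b*. Of all transcripts, the share that rose was 0.892% with *Ucp1*, 0.117% with *Dio2*, 0.17% with *Ppargc1a*, 0.0486% with *Cox7a1* and 0.877% with *Cox8b*. It was 0.163% with *Cidea*, 0.678% with *Elovl3* and 0% with *Prdm16*, and these 3 genes were in no called pair; with *Prdm16*, 2013 of 41153 transcripts rose at an unadjusted p below 0.05.

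*Ucp1*, *Dio2* and *Ppargc1a* formed a closed set of 3 pairs. *Dio2* rose with *Ucp1* at r = 0.72 (95% interval 0.51 to 0.85), rho = 0.73 (both permutation p = 1e-05), with limma adjusted p of 0.00051 and 0.0059 in its 2 fits. Of the 17 strains above the median of *Ucp1*, 13 were also above the median of *Dio2*, and 13 of the 17 below were below. *Ppargc1a* rose with *Dio2* at r = 0.74 (0.54 to 0.86), rho = 0.74 (both permutation p = 1e-05), adjusted p of 0.0031 and 0.0037, with 14 of 17 strains on the same side of both medians at either end. *Ppargc1a* rose with *Ucp1* at r = 0.64 (0.39 to 0.80; permutation p = 2e-05), rho = 0.67 (p = 1e-05), adjusted p of 0.0055 and 0.026.

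None of these 3 relations rested on BXD70, although it was highest in *Dio2* and *Ppargc1a*: all 3 were called without it. Leaving out the 2 strains farthest from the median of the first gene gave r = 0.69, 0.72 and 0.62 for *Ucp1* with *Dio2*, *Dio2* with *Ppargc1a* and *Ucp1* with *Ppargc1a*, but the last was then no longer called. Without BXD97 its adjusted p was 0.011 and 0.0502, just past the threshold.

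*Cox7a1* and *Cox8b* rose together at r = 0.77 (0.59 to 0.88), rho = 0.76 (both permutation p = 1e-05), with adjusted p of 0.029 and 0.0054. Of the 17 strains above the median of *Cox7a1*, 12 were above that of *Cox8b*, and 13 of the 17 below were below. The call was lost when any of BXD48, BXD65, BXD75, BXD80, BXD83, BXD84 or BXD97 was left out, with the larger adjusted p between 0.0533 and 0.097 and r between 0.75 and 0.78. Under quantile normalization of the arrays, r was 0.69 with adjusted p of 0.35 and 0.058.

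**Figure D3:**
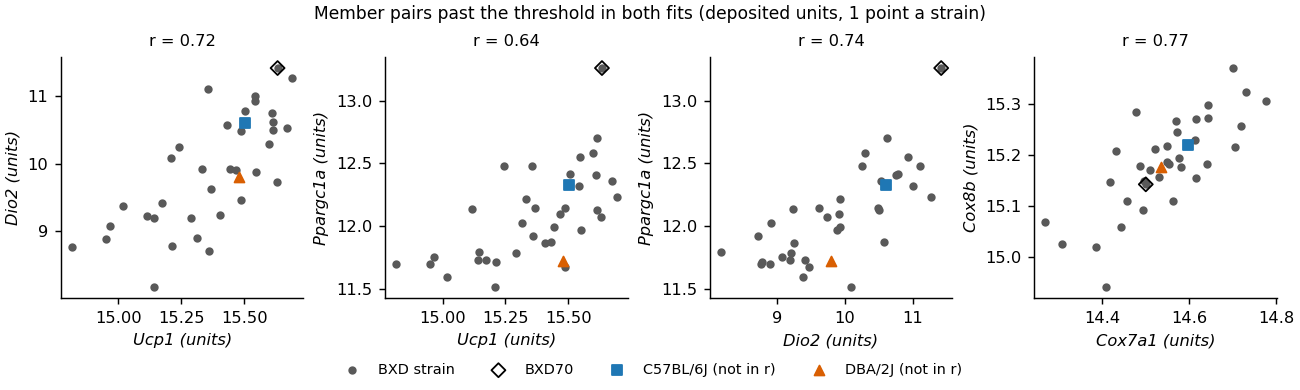
The 4 called pairs, with 1 point for each BXD strain and both axes in units of the rescaled arrays; the open diamond is BXD70, and the square (C57BL/6J) and triangle (DBA/2J) are parents, which did not enter r. The r values are 0.72, 0.64, 0.74 and 0.77 from left to right.

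*Cidea* and *Elovl3* were in none of the called pairs. *Cidea* had r = 0.077 with *Ucp1* (permutation p = 0.66, rho = 0.091, p = 0.60), -0.061 with *Dio2* (p = 0.73, rho = -0.052, p = 0.77) and 0.13 with *Ppargc1a* (p = 0.44, rho = 0.074, p = 0.67). Its highest r with a member was 0.48 with *Elovl3* (permutation p = 0.0042, rho = 0.46, p = 0.0061, 0.50 without the 2 farthest strains), which did not pass the threshold (adjusted p of 0.13 and 0.20). *Elovl3* had the same r of 0.48 with *Ucp1* (permutation p = 0.0035, rho = 0.48, p = 0.0037, 0.40 without BXD83 and BXD84, adjusted p of 0.081 and 0.13). This pair was called when BXD69, the strain with the lowest *Elovl3*, was left out. *Prdm16* had r between 0.23 and 0.56 with the other members, highest with *Cox8b*, where the adjusted p was 0.31 and 0.049.

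Holding the muscle score in the fit changed the correlations little. The partial r was below r in 26 of 28 pairs, but by at most 0.096, and the median went from 0.40 to 0.36. *Ucp1* with *Dio2* had a partial r of 0.70 (adjusted p of 0.0010 and 0.012) and *Dio2* with *Ppargc1a* one of 0.725 (0.0048 and 0.013), and both were called. *Ucp1* with *Ppargc1a* had a partial r of 0.58 (0.020 and 0.086) and *Cox7a1* with *Cox8b* one of 0.74 (0.10 and 0.016), and neither was called. With the muscle score held, the share of all transcripts that rose was 0.846% with *Ucp1*, 0.114% with *Dio2*, 0.0219% with *Ppargc1a*, 0.0243% with *Cox7a1* and 0.518% with *Cox8b*, and 0.143%, 0.697% and 0% with *Cidea*, *Elovl3* and *Prdm16* (at an unadjusted p below 0.05, 1709 transcripts rose with *Prdm16*).

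**Figure D4:**
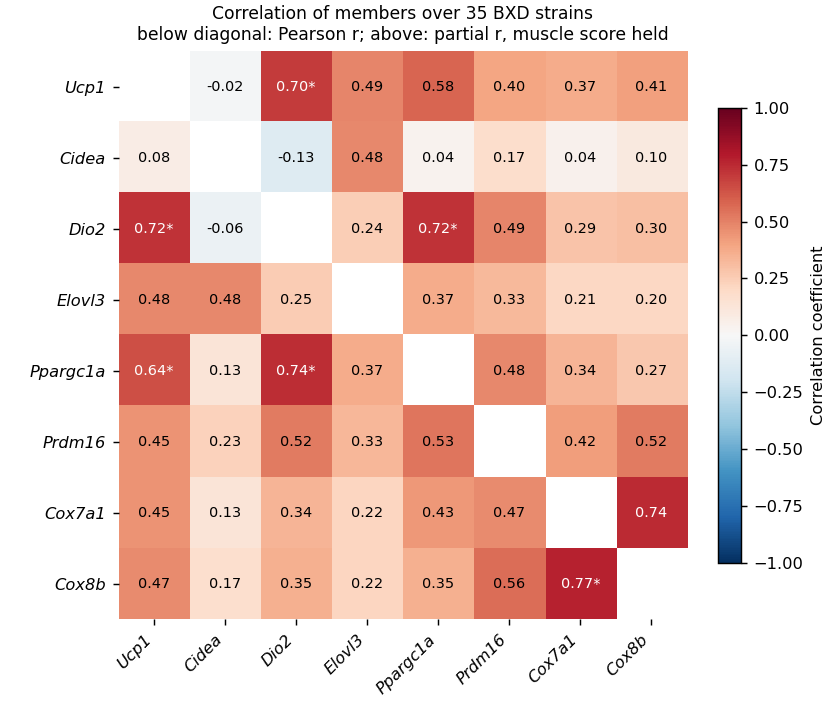
Correlation of the 8 members over 35 BXD strains: Pearson's r below the diagonal and partial r with the muscle score held above it, with colour from -1 (blue) to 1 (red) and an asterisk on called pairs. The *Ucp1*, *Dio2* and *Ppargc1a* cells and the *Cox7a1* with *Cox8b* cell are the darkest on both sides of the diagonal, and those of *Cidea* are pale except with *Elovl3*.

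Other cell type scores also moved with members. Against 6 scores (adipocyte, brown adipocyte, white adipocyte, macrophage, endothelium and liver), 48 relations were computed and 6 passed the threshold of limma. *Ucp1* rose with the adipocyte score at r = 0.77 (permutation p = 1e-05, rho = 0.76, p = 1e-05, 0.77 without BXD75 and BXD97, adjusted p = 0.00048), beside 1.33% of all transcripts that changed with it. *Ppargc1a* rose with it at r = 0.56 (permutation p = 0.00046, rho = 0.61, p = 0.00014, 0.60 without the same strains, adjusted p = 0.033). The genes of the adipocyte score differed. With *Ucp1*, *Lipe* (r = 0.62), *Plin1* (0.61) and *Cidec* (0.58) passed in limma. *Pparg* (0.42), *Fabp4* (0.38) and *Adipoq* (0.20) did not (adjusted p of 0.19, 0.38 and 0.67). The adipocyte score itself fell with the muscle score, at r = -0.51 (permutation p = 0.0015, rho = -0.59, p = 0.0003, -0.52 without BXD65 and BXD95). The brown adipocyte score had r = -0.34 with the muscle score (permutation p = 0.046, rho = -0.42, p = 0.012, -0.51 without these strains), and the white adipocyte score went the other way, at r = 0.38 (permutation p = 0.025, rho = 0.38, p = 0.025, 0.37 without them). Of the adipocyte genes only *Pparg* passed with the muscle score (r = -0.66, limma adjusted p = 0.0045). *Fabp4* had r = 0.098, and the others lay between -0.31 (*Plin1*) and -0.24 (*Adipoq*). With the adipocyte score as a second covariate, 1 of the 4 pairs, *Ucp1* with *Dio2*, remained called. The r of *Ucp1* with *Ppargc1a* was then 0.40 (adjusted p of 0.35 and 0.75), that of *Dio2* with *Ppargc1a* 0.68 (0.047 and 0.058) and that of *Cox7a1* with *Cox8b* 0.705 (0.24 and 0.065).

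*Cidea* went with the brown adipocyte score at r = 0.57 (permutation p = 0.0003, rho = 0.40, p = 0.019, adjusted p = 0.042) and against the macrophage score at r = -0.59 (permutation p = 0.00031, rho = -0.41, p = 0.014, adjusted p = 0.034); 3.74% and 3.22% of all transcripts changed with these scores. BXD61, with the lowest *Cidea*, was at the end of both. Leaving it out with 1 other strain gave r = 0.36 and r = -0.45. *Elovl3* also rose with the brown adipocyte score, at r = 0.56 (permutation p = 0.0004, rho = 0.55, p = 0.00081, 0.54 without BXD61 and BXD97, adjusted p = 0.014). The other members did not pass with this score. Their r ran from -0.003 (*Dio2*) to 0.34 (*Ppargc1a*), with 0.25 for *Ucp1*. Of the genes in that score, only *Otop1* passed with *Elovl3* (r = 0.71, limma adjusted p = 0.0021). The other r were 0.45 for *Kcnk3*, 0.43 for *Slc27a2*, 0.27 for *Zic1*, 0.19 for *Lhx8* and -0.083 for *Ebf2*. With *Cidea* none of these genes passed, and r ran from 0.017 (*Lhx8*) to 0.52 (*Slc27a2*). With *Ucp1* only *Otop1* passed (r = 0.75), and the others ran from 0.0012 (*Slc27a2*) to 0.31 (*Kcnk3*).

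*Ppargc1a* rose with the liver score at r = 0.62 (permutation p = 0.00042, rho = 0.51, p = 0.0022, adjusted p = 0.0073), beside 0.608% of all transcripts, and r was 0.44 without BXD66 and BXD70. In ranks, *Ucp1* and *Dio2* had higher values with the liver score, both with rho = 0.65 (p = 5e-05 and 6e-05), and *Cox7a1* had rho = 0.46 (p = 0.0057). Their r was 0.38, 0.43 and 0.069 (permutation p = 0.022, 0.0021 and 0.68), or 0.48, 0.47 and 0.31 without BXD66 and BXD70, and none passed in limma (adjusted p of 0.64, 0.41 and 0.99). Of the 6 liver genes 3 had means above background over the BXD strains. *Ttr* was above it in 35 strains, *Apoa1* in 34, *Alb* in 14, *Serpina1c* in 3, *Apob* in 2 and *Fgb* in 1. The ranks of the liver score thus partly order values near background. With the liver score as a second covariate, *Dio2* with *Ppargc1a* and *Cox7a1* with *Cox8b* were called, *Ucp1* with *Dio2* missed the threshold (r = 0.67, adjusted p of 0.0044 and 0.053) and *Ucp1* with *Ppargc1a* had r = 0.56 (0.040 and 0.18). No member passed against the white adipocyte score (1.46% of all transcripts) or the endothelium score (2.64%). Single genes of the white adipocyte score went different ways. *Lep*, leptin, had r = -0.63 with *Cidea* and -0.47 with *Elovl3* (limma adjusted p of 0.018 and 0.12). For *Retn*, resistin, these were 0.39 and 0.54 (adjusted p of 0.31 and 0.040). *Hoxc9* and *Hoxc10*, also in that score, were under the background limit in all 35 strains. Whether cell makeup or transcript level per cell lies behind these relations was not tested.

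At an adjusted p below 0.05, more genes of the wider pathway passed with *Ucp1* than with any other member, a difference that was not tested. At an unadjusted p below 0.05 the order differed, and more genes rose with *Cidea*, *Cox8b*, *Ppargc1a* and *Prdm16* than with *Ucp1*. The share of all transcripts that rose at an adjusted p below 0.05 also differed by member, from 0% with *Prdm16* to 0.892% with *Ucp1*. The counts of pathway genes therefore do not rank the members. Of 46 listed genes of adrenergic signalling, transcriptional control and brown fat metabolism, all were found, and 10 rose with *Ucp1* and 0 fell (limma, adjusted p below 0.05), beside 0.892% of all transcripts that rose and 0.906% that fell; at an unadjusted p below 0.05, 14 rose and 5 fell, beside 8.04% and 7.7% of all transcripts. The 10 calls became 6 without BXD83 (*Adrb3*, *Prkar2b*, *Esrra* and *Acot11* were lost) and 3 without BXD83 and BXD84 (*Gk*, *Otop1* and *Adcy3*). The median r of the list with *Ucp1* was 0.23, against 0.030 over all transcripts. With the other members the median r of the list ran from 0.12 (*Dio2*) to 0.27 (*Cox8b*). Of the receptors and signalling enzymes, *Adrb3* and *Adrb1*, the beta-adrenergic receptors, rose at r = 0.58 and 0.62, *Adcy3*, an adenylyl cyclase, at 0.61, and *Prkar2b*, a regulatory subunit of protein kinase A, at 0.62. Of the transcriptional regulators, *Cebpb* rose at r = 0.61 and *Esrra*, oestrogen-related receptor alpha, at 0.56.

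The highest r on the list were those of *Gk* and *Otop1*. *Gk*, glycerol kinase, listed in the table as *Gyk*, ran from 9.76 to 12.45 over the strains and rose with *Ucp1* at r = 0.85 (adjusted p = 3.6e-07). *Otop1*, a proton channel, rose at r = 0.75 (adjusted p = 0.00040), *Letmd1*, a mitochondrial protein, at 0.63, and *Acot11*, an acyl-CoA thioesterase, at 0.54. Over the 10 genes, rho was between 0.52 and 0.84, permutation p was at most 0.0014, r without BXD83 and BXD84 was between 0.44 and 0.84, and the adjusted p was at most 0.039. *Irf4*, a transcription factor induced by fasting in fat, had the lowest r on the list, -0.45 (permutation p = 0.0064, rho = -0.39, p = 0.021, -0.31 without BXD83 and BXD84, adjusted p = 0.11).

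At an adjusted p below 0.05, fewer of the 46 genes rose with each of the other members. These were 4 with *Elovl3* (*Otop1*, *Adcy3*, *Acot11* and *Letmd1*), 3 with *Cox8b* (*Ebf2*, *Acot11* and *Letmd1*), 2 with *Ppargc1a* (*Adcy3* and *Gk*) and 1 with *Dio2* (*Gk*). Of all transcripts, 0.678%, 0.877%, 0.17% and 0.117% rose with these members. None of the 46 rose with *Cidea*, *Prdm16* or *Cox7a1* at an adjusted p below 0.05, beside 0.163%, 0% and 0.0486% of all transcripts. No transcript rose with *Prdm16*, so its count is not particular to the pathway. At an unadjusted p below 0.05, 17, 15 and 13 of the 46 rose with these 3 members, beside 5.63%, 4.89% and 7.12% of all transcripts. At the same unadjusted threshold 16 rose with *Cox8b*, 15 with *Ppargc1a*, 12 with *Elovl3* and 10 with *Dio2*. The shares of all transcripts were 10.8%, 4.7%, 6.24% and 6.4%.

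Of the transcripts most like each member, with the members themselves and Gm and Rik symbols left out, none was named for more than 1 member. For *Ucp1* they were *Gk* (r = 0.85), *Slmo2*, a mitochondrial lipid transfer protein (0.83), and *Gys2*, glycogen synthase (0.81), with *Rpa1*, replication protein A, at the other end (-0.81). For *Dio2* they were *Cxcr7*, an atypical chemokine receptor (0.75), *Megf9* (0.71) and *Mtx1*, a part of the mitochondrial import machinery (0.70), with *Ttc3* lowest (-0.75). For *Ppargc1a* they were *Coq10b*, a coenzyme Q binding protein (0.75), *Dgat1*, which makes triglyceride (0.73), and *Ccrn4l*, nocturnin (0.72), with *Ppp3ca*, a catalytic subunit of calcineurin, lowest (-0.72). Some members were closer to each other than to these transcripts. *Dio2* had r = 0.74 with *Ppargc1a* and 0.72 with *Ucp1*, above its r with *Megf9* and *Mtx1*. The first of these was also above the r of *Ppargc1a* with *Dgat1* and *Ccrn4l*.

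For *Elovl3* the closest were enzymes of lipid metabolism, *Mogat1* (r = 0.83), *Ddhd2* (0.82) and *Hsd17b12*, which acts in fatty acid elongation (0.80), with *Steap4*, a metalloreductase, lowest (-0.79). For *Cidea* they were *Ldhd*, D-lactate dehydrogenase (0.73), *Bag4* (0.71) and *Sh2b2*, an adaptor of insulin signalling (0.69), with *Psat1*, an enzyme of serine synthesis, lowest (-0.77). Without the 2 strains farthest from the *Cidea* median, these 4 values were 0.44, 0.58, 0.51 and -0.64, larger falls than for any other member's list.

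For *Cox7a1* the closest were *Pop5*, a subunit of ribonuclease P (r = 0.81), *Yif1b* (0.79) and *Ndufs8*, a subunit of complex I (0.78), with *AI848100* lowest (-0.76). For *Cox8b* they were *Ppp2r1a*, the scaffold subunit of protein phosphatase 2A (0.81), *Qk*, an RNA-binding protein (0.79), and *Fastk* (0.79), with *Lgr4* lowest (-0.74). For *Prdm16* they were *Cib2* (0.68), *Gad1* (0.65) and *Mtif2* (0.64), with *Mcpt2*, a mast cell protease, lowest (-0.66). *Gad1* and *Mcpt2* had means of 7.33 and 6.60, under the background limit, and none of these 4 passed the threshold (adjusted p of 0.14 and 0.22). The transcripts named for the other 7 members all passed in limma, with adjusted p of at most 0.020. Over all 32, the absolute rho was between 0.49 and 0.84 and permutation p at most 0.0037. These transcripts were picked by their r from all transcripts, so a small permutation p was set by the choice and adds no evidence.

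Paralogues of the members gave a further view of the muscle signal. Of 16 listed, 15 had a probe set, *Cideb* being the exception. None changed with the muscle score at an adjusted p below 0.05 in limma, and 2 did, both falling, at an unadjusted p below 0.05, beside the 5.79% of all transcripts that fell. These were *Ppargc1b*, the sister coactivator of *Ppargc1a* (r = -0.46, permutation p = 0.0061, rho = -0.48, p = 0.0045, -0.42 without BXD65 and BXD95, adjusted p = 0.17), and *Cox8a*, the subunit form found in most tissues (r = -0.39, permutation p = 0.021, rho = -0.59, p = 0.00023, -0.34 without them, adjusted p = 0.45). *Cox8a* and *Cox8b* thus both had a negative r with the muscle score. *Ucp3*, the uncoupling protein of skeletal muscle and brown fat, had r = 0.31 (permutation p = 0.070, rho = 0.28, p = 0.099, adjusted p = 0.50) and 0.098 without BXD65 and BXD95. *Cpt1a* and *Cpt1c*, the relatives of the missing *Cpt1b*, had r = 0.14 and 0.17.

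**Figure D5:**
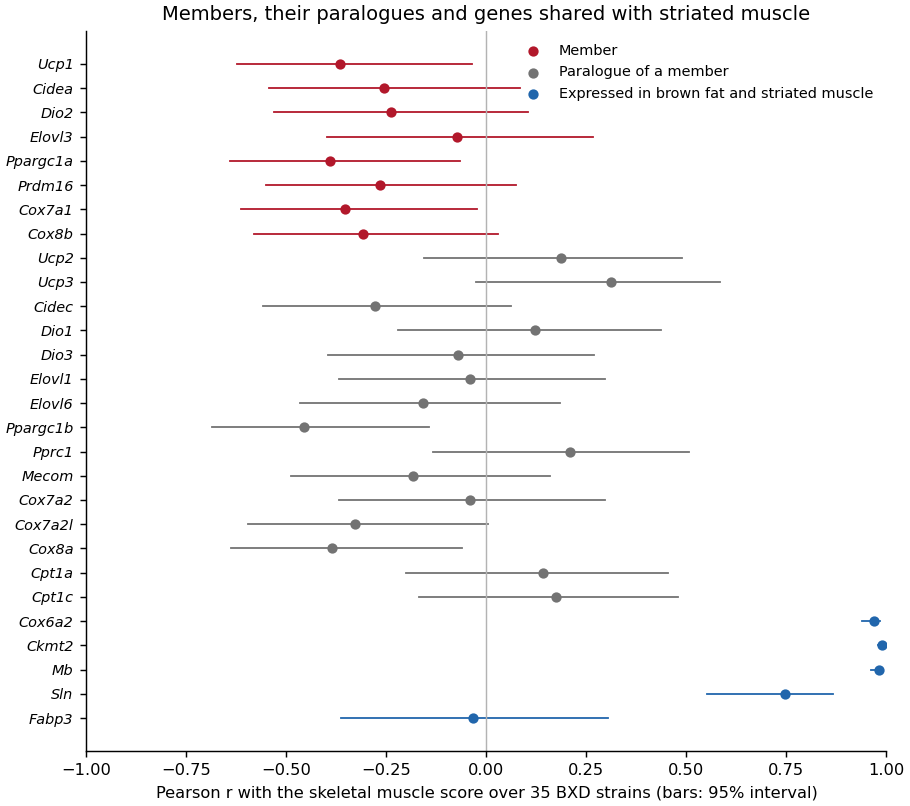
Pearson's r with the skeletal muscle score over 35 BXD strains (horizontal axis; bars are 95% intervals) for the 8 members, 15 paralogues and 5 genes expressed in brown fat and striated muscle. The members lie between -0.39 and -0.07, while *Ckmt2*, *Mb* and *Cox6a2* lie at 0.97 or above.

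Against their own member, 3 of 13 paralogues passed the threshold, those of *Elovl3* beside 0.678% of all transcripts that rose with it and 0.612% that fell, and that of *Cox8b* beside 0.877% that rose. *Elovl6*, which elongates shorter fatty acids, rose with *Elovl3* at r = 0.67 (permutation p = 4e-05, rho = 0.67, p = 4e-05, 0.64 without the 2 farthest strains, adjusted p = 0.0047). *Elovl1* fell as *Elovl3* rose, at r = -0.57 (permutation p = 0.0005, rho = -0.46, p = 0.0063, -0.47 without them, adjusted p = 0.037). *Cox8a* rose with *Cox8b* at r = 0.68 (permutation p = 3e-05, rho = 0.63, p = 0.00011, 0.65 without the 2 farthest, adjusted p = 0.029). *Ucp2* and *Ucp3* had r of -0.21 and -0.18 with *Ucp1*, neither past the threshold, although *Ucp2*, expressed in many tissues, ran from 9.02 to 11.41. Of the other paralogues, *Ppargc1b* (0.52) and *Cidec* (0.42) had the highest r with their members, and *Dio1*, *Dio3*, *Pprc1*, *Mecom*, *Cox7a2* and *Cox7a2l* lay between 0.0070 and 0.39. *Dio3*, the enzyme that inactivates thyroid hormone, was under the background limit in all 35 strains.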

How the data were processed

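Brown fat of 37 strains was measured on 1 array each. Per the file headers and the labels, the authors deposited 1 table of 41345 probe sets; its values are scores, since every array was set by the authors to mean 8 and SD 2 after Affymetrix Expression Console, named in the submitters' processing notes. The summary method, log base and build are not given in the sources used here. No column was left unused. Arrays have no read depth, so the number of arrays limits the precision.

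Columns were matched to strains by name. After 190 array controls were left out, 41155 transcripts were tested with limma 3.58.1 (lmFit, eBayes) in R 4.3.3 with a gene or score as continuous covariate over 35 BXD strains, Benjamini-Hochberg over all transcripts, threshold 0.05, and the step was tested on simulated data. Pearson's r and Spearman's rho had 100000 permutations (two-sided), and r was repeated without the 2 strains farthest from the median of the covariate. Intervals of r are 95% Fisher intervals. Scores are means of listed genes. Members and lists were chosen with earlier results of these data known. Named genes are all members, all paralogues, the pathway genes past the threshold with *Ucp1*, and the genes with the widest and narrowest range of 3 marker lists. Per member, the 3 transcripts with the highest r and the 1 with the lowest are also named (members, Gm and Rik symbols left out). *Irf4*, *Lhx8*, the shared muscle genes and single genes of the adipocyte, brown adipocyte, white adipocyte and liver scores were named after their values were seen. Promoters and older symbols are from RefSeq on GRCm38.p6; positions of the probe sets were not used. No protein sequences were used here. Alternatives were other scalings, samples, probe set rules, filters, muscle scores and second covariates. Permutations and figures were made with scipy 1.17.1, matplotlib 3.10.9, pandas 2.3.3 and numpy 2.4.6 under Python 3.11.15.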

Additional observations from a re-analysis of the deposited data

How the results depend on the processing

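No member was called against the muscle score under any alternative, including *Acta1* alone, a slow fibre and heart list and the first principal component of the muscle list as the score; r stayed negative, except that *Elovl3* reached 0.021 without BXD69 and 0.024 without BXD97, in a range from -0.14 to 0.024 with each strain left out. The 4 called pairs became 2 without the 2 strains farthest from the median of the covariate, and, in alternatives chosen after seeing the data, 1 with the adipocyte score and 2 with the liver score as a second covariate; with each strain left out they numbered 2 (without BXD97) to 5 (without BXD69). With the muscle score held, the 2 called pairs became 1 without the 2 farthest strains and 1 when probe sets of a gene were averaged, and 2 to 3 with each strain left out. The 10 pathway genes called with *Ucp1* became 3 without the 2 farthest strains, and 6 (without BXD83) to 11 (without BXD50) with each strain left out. The parental difference of *Dio2* no longer passed when its probe sets were averaged, which left 0 members past it. Of 47 alternatives for each pair, *Ucp1* with *Dio2* and *Dio2* with *Ppargc1a* were called in 46, *Ucp1* with *Ppargc1a* in 43 and *Cox7a1* with *Cox8b* in 37. Uncalled pairs of *Cidea* changed sign: with *Ucp1* (-0.12 under quantile normalization, -0.34 with the adipocyte score held), with *Dio2* (0.010 with the white adipocyte score held), with *Ppargc1a* (-0.0018 and -0.092 in the first 2 settings), with *Prdm16* (-0.033 without the 2 farthest strains, -0.028 with the macrophage score held), and with *Cox7a1* and *Cox8b* (-0.051 and -0.0074 with the adipocyte score held). The cause was not tested. Under every alternative run, 3 members had a range of at least 1 unit. No paired analysis was possible because each strain has 1 array. The number of strains limits the precision: an r of 0.45 with *Ucp1* has a 95% interval from 0.14 to 0.68.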
